A study of Homo sapiens with 8 samples.

Results

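The 38 HOX genes described here are the protein-coding rows of the deposited count table whose names are on a fixed list of members of the HOXA, HOXB, HOXC and HOXD clusters. They are 38 of 19951 protein-coding rows and of 58735 rows in all. The list goes by gene name and not by a measured value, although earlier results of these data were known when it was chosen. The RNA-seq data cover 8 libraries of EPC2-hTERT, a line of human esophageal epithelial cells immortalised with telomerase. The 4 CTRL libraries come from control cells, and the 4 miR-155OE libraries from a stable line made by lentiviral overexpression of miR-155-5p. Both groups were seeded on inserts with pores of 0.4 µm, kept 2 days, switched to 1.8 mM calcium for another 5 days, and brought to the air-liquid interface, where such cells form a stratified layer. The promoter that drives the microRNA, whether CTRL cells carry an empty vector, and whether the stable line is a pool or a clone are not given in the sources used here. Libraries are numbered 1 to 4 within a group, and the labels do not say that these are separate cultures. Each p-value thus measures only how these samples spread, which may be technical variation.

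HOX genes encode homeodomain transcription factors that mark position along the head-to-tail axis of the embryo. Genes near the 3′ end of each cluster carry low paralog numbers and act toward the head, and genes near the 5′ end carry high numbers and act toward the tail, the limb tips and the external genitalia. Adult epithelia and fibroblasts keep site-specific sets of HOX genes on. The silent genes of a cluster are kept off by Polycomb proteins, the active ones are kept on by Trithorax proteins, and retinoic acid turns on the low-numbered genes. HOX proteins bind DNA together with cofactors of the TALE class, the PBX, MEIS and PKNOX proteins. The overexpressed microRNA recognises messages mainly through bases 2 to 8, its seed, which stand in capitals in its mature sequence (RefSeq, GRCh38.p14, plus strand of chr21:25573983-25574006).
hsa-miR-155-5p: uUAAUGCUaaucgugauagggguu

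The libraries held 33443635 to 52746852 assigned reads, of which 1498 to 2256 per library fell on the 38 HOX genes. No pair of libraries of a group was identical, and within-group pairs differed by more than sampling noise (chi-square per degree of freedom 15.8 to 82.5). The rows of MIR155HG and MIR155 held 0 reads in all 8 libraries, so these counts do not check the labels. All 12 squamous markers had enough reads to test, and they summed to 54926 to 66184 CPM (counts scaled to library size) in CTRL and 46012 to 59495 in miR-155OE. In edgeR 0 of the 12 passed the test, against 3.22% of all 15135 genes tested. An unadjusted p under 0.05 was seen for 4 of the 12 and for 2925 of all genes tested. DESeq2 called 0 of the 12 and limma-voom 1 (KRT4, lower). With the replicate number as a block, 7.43% of all genes tested rose and 5.17% fell in edgeR. Of the 12 markers 5 fell in that fit: KRT4, KRT13, SPRR3 and CRNN, genes of the upper layers of this epithelium, and KRT15, a basal keratin (adjusted p 0.00696, 0.0185, 0.0338, 0.0385 and 0.0292). KRT4 measured 60.4, 111, 126 and 83.8 CPM in CTRL 1 to 4 against 5.71, 47.9, 3.18 and 12.2 CPM in miR-155OE 1 to 4, with no overlap. SPRR3 measured 832, 1258, 1345 and 877 CPM in CTRL against 181, 818, 76.5 and 438 CPM in miR-155OE. Both were lowest in miR-155OE 1 and 3. CRNN was 2.09-fold and KRT13 3.86-fold lower in miR-155OE by value on group alone. Fibroblast markers summed to 97.9 to 152 CPM in CTRL against 102 to 226 in miR-155OE. Most of this sum was COL1A1, at 92.8 to 145 CPM in CTRL and 98.1 to 221 CPM in miR-155OE. Of the 12, 7 had 3 reads or fewer in every library, among them DCN, LUM, COL3A1 and COL1A2. With the block COL1A1 rose and TWIST1 fell (adjusted p = 0.0451 in edgeR and 0.0308). Immune markers summed to 7.96 to 10.1 and 9.21 to 16.2 CPM, most of it CD14 (7.29 to 9.42 and 8.48 to 14.7 CPM). PTPRC and CD3E had 3 reads or fewer in every library, and CD14 rose with the block (adjusted p = 0.0239 in edgeR). Endothelial, neural crest and columnar markers stayed under 3 CPM in sum. The part of these shifts in the HOX values was not tested.

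HOX expression was spread over all 4 clusters but was fullest in HOXC. Of the 38 genes, 13 had at least 10 reads in each of the 8 libraries: HOXA3 and HOXA4 on chromosome 7, HOXB2, HOXB3, HOXB4 and HOXB7 on chromosome 17, HOXC4, HOXC6, HOXC8, HOXC9, HOXC10 and HOXC13 on chromosome 12, and HOXD8 on chromosome 2. By cluster this is 2 of 10 HOXA, 4 of 10 HOXB, 6 of 9 HOXC and 1 of 9 HOXD genes. HOXA2, HOXA5, HOXB6 and HOXC11 were lower, with a read in every library, and passed the filter on low counts, which brings the genes tested to 17. Low and high paralog numbers were both on. The expressed set ran from group 2 (HOXB2) to group 13 (HOXC13), with 3 of 7 members of groups 1 to 3, 7 of 15 of groups 4 to 8 and 3 of 16 of groups 9 to 13. All 3 of the last set, HOXC9, HOXC10 and HOXC13, lie in the HOXC cluster.

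Levels per length were highest for HOXC10 in both groups, followed by HOXB2 in CTRL and by HOXC13 in miR-155OE. On the TPM scale, which corrects for the deposited gene length and for library size, HOXC10, known for its role in lumbar motor neurons, averaged 12.2 over the 8 libraries (range 7.90 to 15.3). HOXB2, a hindbrain gene, averaged 9.17 (5.68 to 12.4), and HOXC13, a gene of hair follicles and nails, averaged 7.08 with the widest range, 1.63 to 14.4. In CTRL alone HOXC13 averaged 3.26 TPM, below HOXB7 at 4.99, HOXC4 at 3.94 and HOXC9 at 3.90, whereas in miR-155OE it averaged 10.9 TPM, above HOXB2 at 7.54. The ranges of these 3 overlapped. HOXB7 averaged 5.26 TPM, HOXC9 3.98, HOXC4 3.50, HOXA4 2.56, HOXA3 2.05 and HOXB4 1.96. HOXD8 at 1.42, HOXC6 at 1.39, HOXC8 at 0.977 and HOXB3 at 0.752 TPM closed the set of 13. HOXA5 averaged 0.578 TPM, HOXA2 0.502, HOXC11 0.431 and HOXB6 0.429. No HOX gene exceeded 15.3 TPM in any library, and neighbours in this order overlapped in range.

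**Figure D1:**
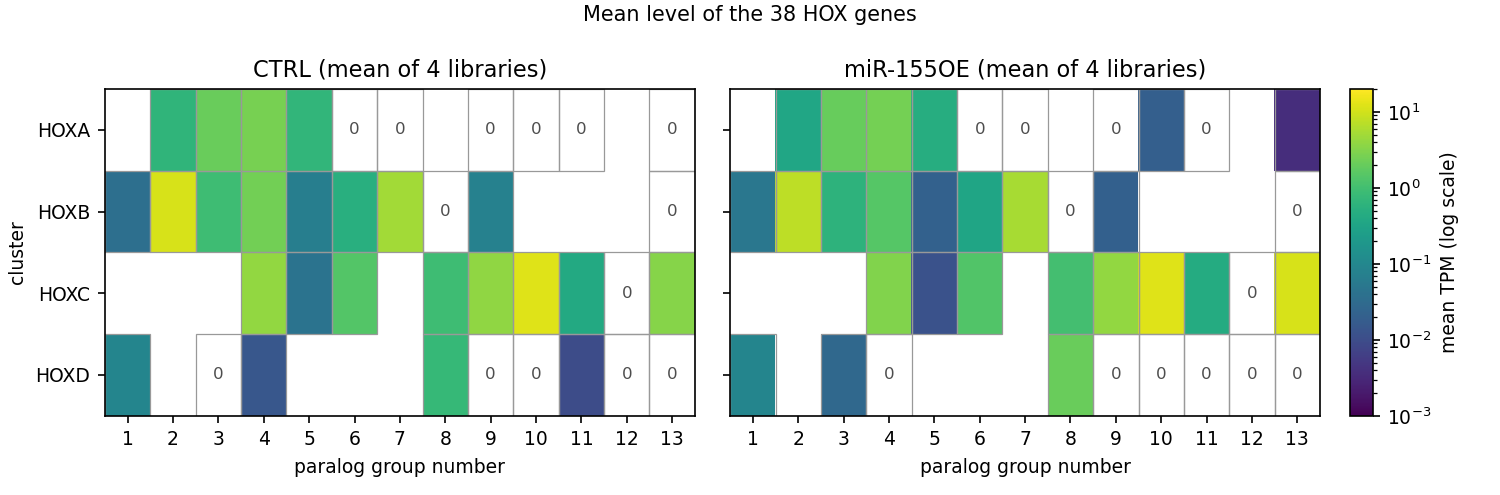
Mean TPM (colour, log scale) of each HOX gene in the 4 CTRL and the 4 miR-155OE libraries, by cluster (vertical axis) and paralog group number (horizontal axis); outlined squares with 0 are members with no read in that group, and blank squares hold no member. Bright squares run along the HOXC row at HOXC4, HOXC6 and HOXC8 to HOXC10 and at HOXC13, while the HOXD row has one only at HOXD8.

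Of the other members, 11 had 0 reads in all 8 libraries: HOXA6, HOXA7, HOXA9, HOXA11, HOXB8, HOXB13, HOXC12, HOXD9, HOXD10, HOXD12 and HOXD13. A floor of 3 reads, the limit that a count of 0 allows, corresponds to 0.0573 to 0.0901 CPM per library (counting error only). HOXB13, a gene of the prostate and hindgut, and HOXD13, a gene of the digits, were thus not detectable at this depth. The 10 remaining members had few reads and were not tested. Summed over the 8 libraries HOXD1 had 18 reads, HOXB9 14, HOXB1 12, HOXB5 10, HOXD3 5, HOXC5 5, HOXA10 4, HOXD11 1, HOXD4 1 and HOXA13 1, and none exceeded 6 in a library. All 4 reads of HOXA10 came from miR-155OE replicate 4. The expressed genes were not contiguous: HOXD8 stood alone with silent HOXD9 to one side, and HOXB7 lay between HOXB6, tested at a low level, and HOXB8, with no read. Part of this pattern rests on gene models, because a read in an exon shared by overlapping genes may be assigned to neither or to either. Only 19.5% of the exon bases of HOXD4, 25.9% of HOXD3, 37.5% of HOXA7, 40.1% of HOXC5 and 41.9% of HOXD1 are not shared with another annotated gene on some strand (GENCODE 29), whereas for HOXD8, HOXD9, HOXD12, HOXD13, HOXB7, HOXB8 and HOXC12 the value is 100%.

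The bases before the start site are shown for HOXD8, the only HOXD gene with 10 reads in every library, for HOXA4, the HOXA gene with the highest mean TPM (HOXA3 has more reads, and their TPM ranges overlap), and for HOXA9, a HOXA gene with no read. They come from the RefSeq promoter table on GRCh38.p14, which held 27 windows for 20 members, and lie at chr2:176129455-176129693 (plus strand), chr7:27130800-27131007 (minus strand) and chr7:27165538-27165787 (minus strand). Capitals mark CG dinucleotides, the sites of DNA methylation.
HOXD8 promoter: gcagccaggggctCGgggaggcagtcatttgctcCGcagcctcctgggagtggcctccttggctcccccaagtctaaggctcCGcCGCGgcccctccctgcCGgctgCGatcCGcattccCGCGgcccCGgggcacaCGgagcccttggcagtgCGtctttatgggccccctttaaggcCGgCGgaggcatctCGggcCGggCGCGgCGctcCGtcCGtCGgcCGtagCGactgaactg
HOXA4 promoter: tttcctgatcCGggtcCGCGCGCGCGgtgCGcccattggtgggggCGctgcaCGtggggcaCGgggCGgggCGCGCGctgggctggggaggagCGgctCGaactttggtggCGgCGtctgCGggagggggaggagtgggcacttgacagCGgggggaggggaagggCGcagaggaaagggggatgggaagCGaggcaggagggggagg
HOXA9 promoter: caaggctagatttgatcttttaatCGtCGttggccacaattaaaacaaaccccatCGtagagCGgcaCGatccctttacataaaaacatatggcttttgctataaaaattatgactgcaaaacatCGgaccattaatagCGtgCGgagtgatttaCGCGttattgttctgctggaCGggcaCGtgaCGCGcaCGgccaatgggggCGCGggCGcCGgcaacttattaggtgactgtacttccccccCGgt
HOXD8 has 25 CG dinucleotides in 239 bases (10.5 per 100), HOXA4 22 in 208 (10.6 per 100) and HOXA9 20 in 250 (8.0 per 100). Over 35116 RefSeq windows of 250 bases the median was 11 CG per window, and over the 27 member windows it was 19.0. The silent and the expressed genes shown are thus both rich in CG. The TATA-box letters TATAAA, the CCAAT box, the PBX and HOX type of motif TGATNNAT and the MEIS type of motif CTGTCA were searched on both strands. None of these motifs contains another. HOXA9 holds TATAAA and CCAAT, HOXA4 holds CCAAT and CTGTCA, and the HOXD8 bases hold none of the 4. These letters occur in 10.7%, 32.0%, 6.5% and 13% of all windows, and in 5, 18, 3 and 2 of the 27 member windows. The 27 are not separate promoters of separate genes. HOXC4 and HOXC5 have the same window, HOXA3 has several, and HOXC13, HOXB2 and HOXB4 have none. Such a match is a description and not a site.

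The comparison of miR-155OE with CTRL asks whether microRNA overexpression in stratified cultures moves the HOX set. HOXC13 rose, and no HOX gene fell in edgeR on group alone. Of 17 HOX genes tested by edgeR's quasi-likelihood test with adjustment over all 15135 genes, 1 rose, 0 fell and 16 did not pass. The share called over all genes was 3.22% (2.17% higher and 1.05% lower). Without adjustment, 2 of the 17 were higher and 4 lower at p under 0.05 in edgeR, against 1614 higher and 1311 lower of all 15135 genes. By limma-voom HOXC13 alone was called (322 higher and 181 lower of all genes). DESeq2 called HOXC13 and HOXD8 higher and HOXB2 lower (776 higher and 447 lower of all genes). With the replicate number as a block, a design in which 12.6% of all genes were called (7.43% higher and 5.17% lower), HOXC13 and HOXD8 rose and HOXB2 and HOXB4 fell. The median log2 fold change of the 17 was -0.08 (6 above and 11 below 0), against -0.01 over all genes tested. The groups did not overlap for 2 of the 17, HOXC13 and HOXD8, both higher, against 11.4% of all genes tested (6.16% higher and 5.25% lower). In these bulk samples, fewer cells of a type and less RNA per cell cannot be told apart.

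**Figure D2:**
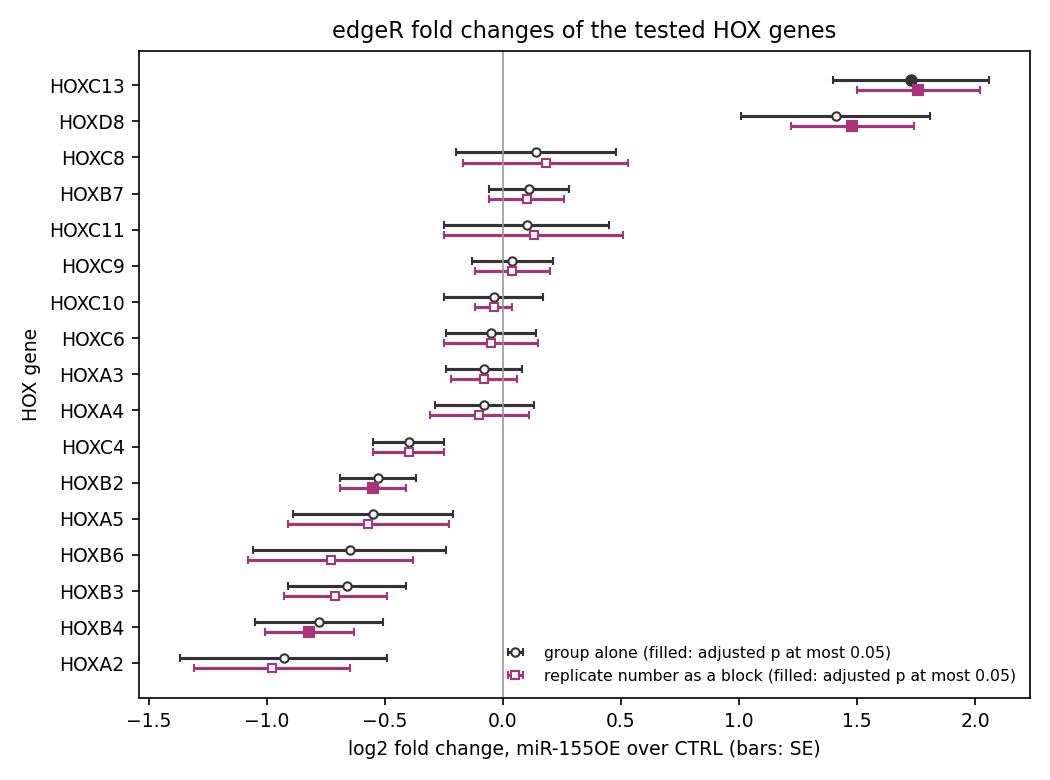
Log2 fold change, miR-155OE over CTRL (horizontal axis; bars are the SE), of the 17 tested HOX genes by edgeR on group alone (circles) and with the replicate number as a block (squares); filled symbols have an adjusted p of at most 0.05. HOXC13 at 1.73 is filled in both fits, and HOXD8, HOXB2 and HOXB4 only with the block.

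HOXC13, whose product switches on hair keratin genes and whose loss causes hair and nail dysplasia, lies at the 5′ end of the HOXC cluster at chr12:53938765-53946544 (plus strand, GRCh38). Its level in CTRL 1 to 4 was 3.26, 4.17, 2.21 and 1.39 CPM, and in miR-155OE 1 to 4 it was 11.4, 6.47, 12.1 and 6.43 CPM. Every miR-155OE library stood above every CTRL library, and miR-155OE 1 and 3 stood highest. The mean went from 2.76 ± 1.21 to 9.09 ± 3.06 CPM (SD, n = 4 each), or from 3.26 ± 1.46 to 10.9 ± 3.70 TPM. This is a 3.32-fold difference (log2 1.73, SE 0.33, adjusted p = 0.0246 in edgeR, higher in 4 of 4 same-numbered pairs). The pairs differed by 1.81, 0.63, 2.45 and 2.21 on the log2 scale for numbers 1 to 4, so pair 2 differed least. With the block the adjusted edgeR p was 0.00403. The call was lost without CTRL 1 (log2 fold change 1.82, adjusted p = 0.0601 in edgeR), CTRL 3 (1.63, 0.0867), miR-155OE 1 (1.60, 0.0771) or miR-155OE 3 (1.56, 0.0747), each of which left groups of 3 and 4.

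The antisense gene HOXC13-AS, on the opposite strand at chr12:53935328-53939643, was higher in miR-155OE by value. It shares 172 exon bases with HOXC13, and since no strand setting is given for the counting, overlap reads of these genes cannot be told apart. Its level was 3.97, 3.44, 2.65 and 1.86 CPM in CTRL 1 to 4 against 9.19, 5.49, 7.84 and 3.53 CPM in miR-155OE 1 to 4. The groups overlapped only between miR-155OE 4 and CTRL 1, and all 4 pairs were higher in miR-155OE. HOXC13-AS did not pass on group alone (log2 fold change 1.13, SE 0.31, adjusted p = 0.0704 in edgeR) and passed with the block (1.11, adjusted p = 0.00370) and without miR-155OE 4 (1.34, 0.0352). With the reads of both genes added together, an alternative chosen after seeing the data, the log2 fold change was 1.45 (adjusted p = 0.0334 in edgeR).

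**Figure D3:**
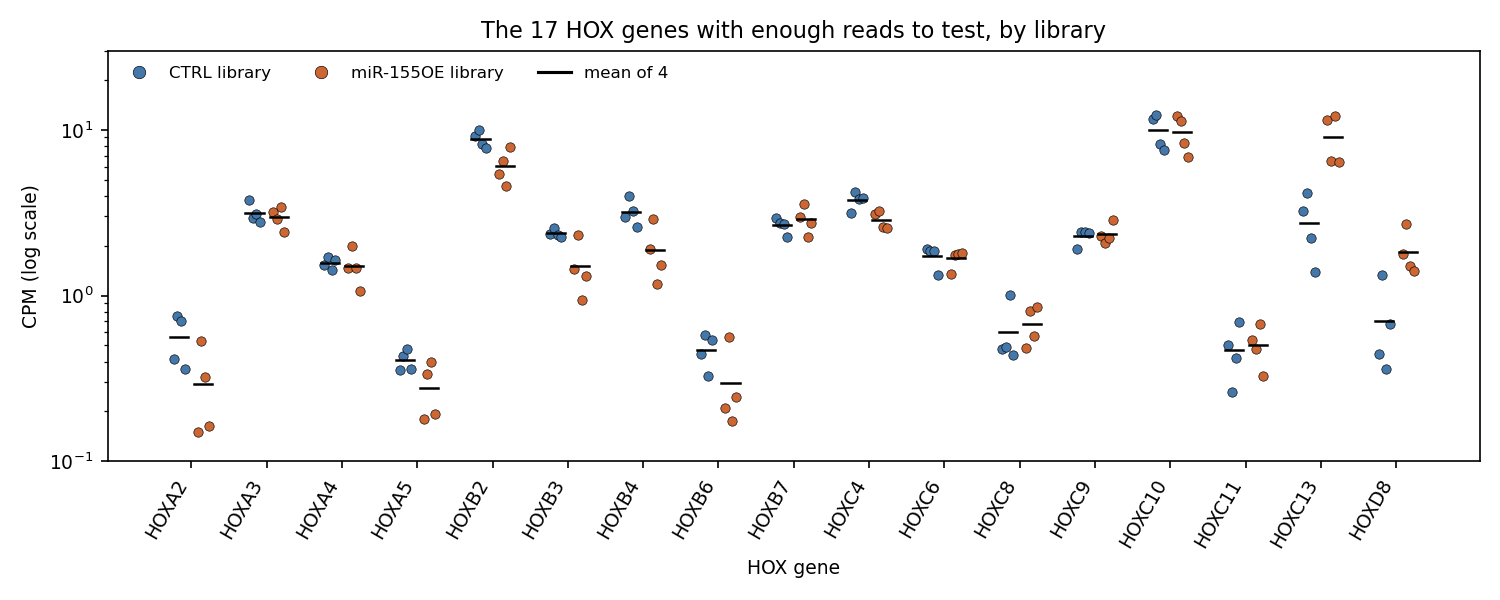
CPM (log scale) of the 17 tested HOX genes in each of the 4 CTRL (blue) and 4 miR-155OE (orange) libraries, with black bars at the group means. HOXC13 and HOXD8 are the 2 genes whose groups do not overlap; HOXC10 holds about the same level in both groups, 9.92 and 9.65 CPM.

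No other tested HOXC gene passed the test in either fit. HOXC10 measured 11.7, 12.3, 8.23 and 7.51 CPM in CTRL 1 to 4 against 12.1, 11.3, 8.31 and 6.87 CPM in miR-155OE 1 to 4. Its level followed the replicate number and not the group: numbers 1 and 2 stood above numbers 3 and 4 in both groups. The log2 fold change was -0.04 (SE 0.21, adjusted p = 0.945 in edgeR), with the SE at 0.08 under the block. Within each library the log2 ratio of HOXC13 to HOXC10 reads was -1.93 ± 0.36 in CTRL against -0.11 ± 0.55 in miR-155OE (SD, n = 4 each), with no overlap between groups. This ratio was chosen after its values were seen, so the difference of 1.82 is given as a description, with no test.

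HOXC4, a gene of the neck and upper trunk, measured 3.14, 4.23, 3.80 and 3.87 CPM in CTRL 1 to 4 against 3.09, 3.22, 2.58 and 2.55 CPM in miR-155OE 1 to 4. CTRL 1 was the lowest of its group and lay inside the miR-155OE range. All 4 pairs were lower in miR-155OE, but the difference did not pass (log2 fold change -0.40, SE 0.15, adjusted p = 0.179 in edgeR, and 0.111 with the block). HOXC4 shares exons with HOXC6 and HOXC5, and 82.2% of its exon bases are its own. HOXC6 measured 1.92, 1.85, 1.85 and 1.34 CPM in CTRL against 1.35, 1.76, 1.79 and 1.81 CPM in miR-155OE, with 1 low library in each group. HOXC8, a thoracic gene, measured 0.473, 0.492, 1.01 and 0.439 CPM in CTRL against 0.481, 0.812, 0.571 and 0.849 CPM in miR-155OE. HOXC9, which sets thoracic motor neuron identity, was steadier at 1.92, 2.43, 2.41 and 2.40 CPM in CTRL against 2.28, 2.07, 2.23 and 2.85 CPM in miR-155OE. HOXC11, next to HOXC10 toward the 5′ end, measured 0.503, 0.261, 0.420 and 0.697 CPM in CTRL against 0.541, 0.476, 0.670 and 0.328 CPM in miR-155OE. These 4 genes overlapped between groups and had log2 fold changes of -0.05 (SE 0.19), 0.14 (SE 0.34), 0.04 (SE 0.17) and 0.10 (SE 0.35) in that order, with edgeR adjusted p from 0.871 to 0.927. The difference between HOXC13 and its 6 tested neighbours was not tested.

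HOXD8 was the other gene with separate groups. It lies at chr2:176129694-176132695 (plus strand, GRCh38), shares no exon base with another gene, and measured 0.444, 1.33, 0.363 and 0.671 CPM in CTRL 1 to 4 against 1.77, 2.69, 1.51 and 1.40 CPM in miR-155OE 1 to 4. CTRL 2 was close to the lowest miR-155OE library, and number 2 was the highest in both groups. The mean was 0.702 ± 0.439 CPM in CTRL against 1.84 ± 0.585 CPM in miR-155OE (SD, n = 4 each), which is a 2.66-fold difference on 15 to 96 reads per library. On group alone it did not pass (log2 fold change 1.41, SE 0.40, adjusted p = 0.0787 in edgeR). With the block HOXD8 rose (log2 1.48, adjusted p = 0.00838 in edgeR), with pair differences of 2.00, 1.01, 2.06 and 1.06. It also passed in DESeq2 (adjusted p = 0.0106), with no filter on low counts (adjusted p = 0.0244 in edgeR) and without CTRL 2 (log2 1.91, adjusted p = 0.0316 in edgeR). HOXD8 did not pass in limma-voom (adjusted p = 0.0525) or without any other single library (adjusted p up to 0.190 in edgeR).

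The HOXD noncoding genes with enough reads to test, HAGLR and HOXD-AS2, were higher in miR-155OE by value but did not pass. HAGLR, a long noncoding RNA that lies between HOXD3 and HOXD1 and overlaps exons of both, measured 0.385, 0.347, 0.153 and 0.103 CPM in CTRL 1 to 4 against 0.421, 1.01, 0.521 and 0.547 CPM in miR-155OE 1 to 4. The groups did not overlap, yet pair 1 differed by only 0.13 on the log2 scale (log2 fold change 1.37, SE 0.45, adjusted p = 0.129 in edgeR, and 0.0562 with the block). HOXD-AS2, whose gene span covers HOXD8 on the opposite strand, had a log2 fold change of 0.75 (SE 0.46, adjusted p = 0.422 in edgeR). Adding its reads to those of HOXD8, an alternative chosen after seeing the data, gave 1.23 (adjusted p = 0.0818 in edgeR).

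**Figure D4:**
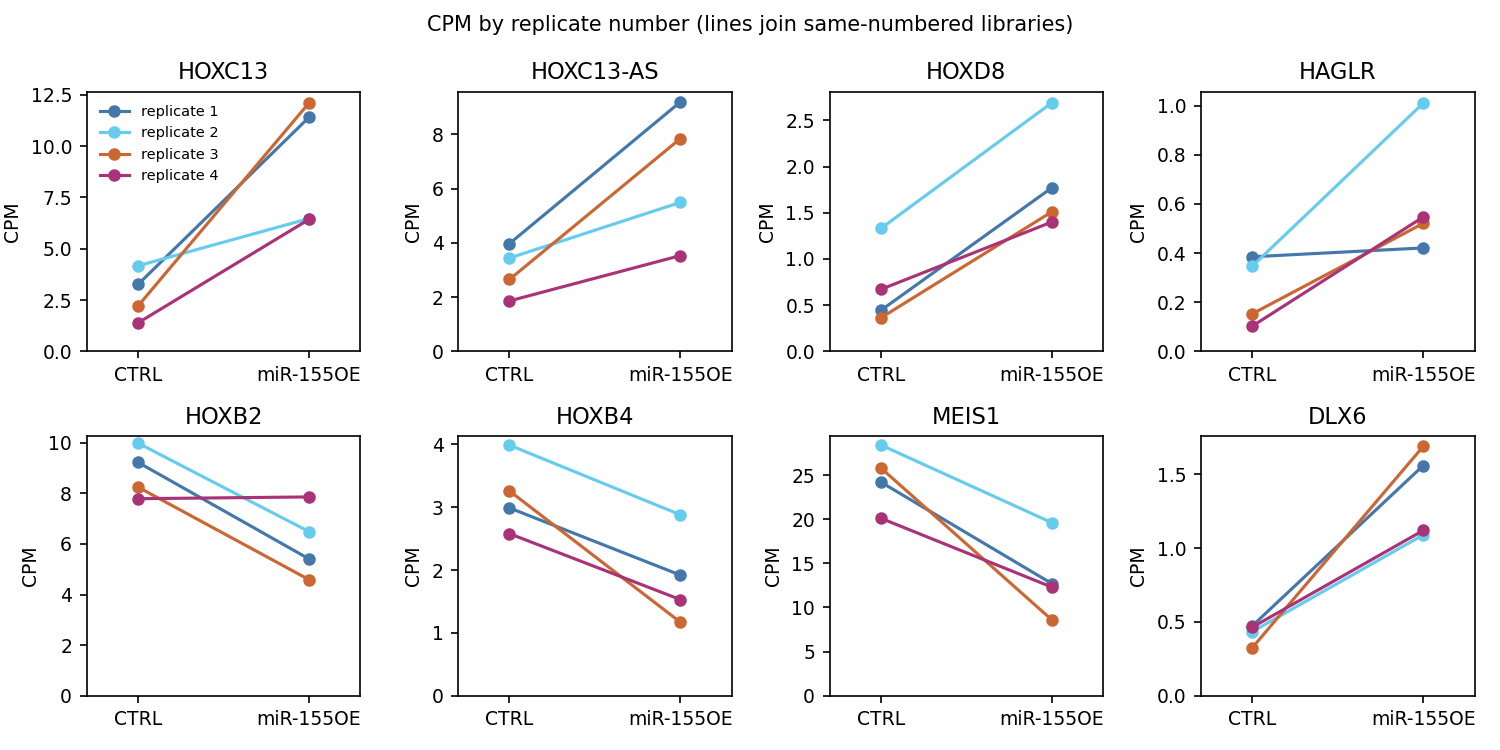
CPM (vertical axes, from 0) in CTRL and miR-155OE, with lines joining libraries of the same replicate number, for HOXC13, HOXC13-AS, HOXD8, HAGLR, HOXB2, HOXB4, MEIS1 and DLX6. All 4 lines go up for the first 4 genes and DLX6, all 4 go down for HOXB4 and MEIS1, and HOXB2 goes down in 3 of 4.

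HOXB2, HOXB3 and HOXB4 were lower in miR-155OE by value, and HOXB2 and HOXB4 passed with the block. HOXB2, which patterns the hindbrain with its neighbour HOXB1, lies at chr17:48540894-48544989 (minus strand). It measured 9.23, 9.99, 8.25 and 7.79 CPM in CTRL 1 to 4 against 5.41, 6.49, 4.59 and 7.86 CPM in miR-155OE 1 to 4. The number 4 pair differed by 0.01 on the log2 scale, and the other pairs differed by -0.77, -0.62 and -0.85. The group means of 8.81 ± 0.986 and 6.09 ± 1.41 CPM (SD, n = 4 each) gave a log2 fold change of -0.53 (SE 0.16, adjusted p = 0.104 in edgeR). The adjusted p was 0.0367 with the block and 0.0363 in DESeq2.

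HOXB4, known for expanding blood stem cells, lies at chr17:48575513-48580111 (minus strand) and measured 2.99, 3.99, 3.26 and 2.58 CPM in CTRL 1 to 4. In miR-155OE 1 to 4 it measured 1.92, 2.88, 1.17 and 1.53 CPM. Only miR-155OE 2 reached into the CTRL range, and all 4 pairs were lower, by -0.64, -0.47, -1.48 and -0.75 on the log2 scale. The log2 fold change was -0.78 (SE 0.27, adjusted p = 0.140 in edgeR), -0.82 with the block (adjusted p = 0.0250) and -1.06 without miR-155OE 2 (adjusted p = 0.0211). HOXB3 shares 159 exon bases with HOXB4 and 433 with HOXB6. It measured 2.34, 2.55, 2.33 and 2.27 CPM in CTRL against 1.44, 2.32, 0.943 and 1.31 CPM in miR-155OE. Here too miR-155OE 2 alone overlapped CTRL. HOXB3 did not pass (log2 fold change -0.66, SE 0.25, adjusted p = 0.180 in edgeR, and 0.0604 with the block) except without miR-155OE 2 (-0.94, adjusted p = 0.0219).

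HOXB6 and HOXB7 did not pass in either fit. HOXB7, a gene of the trunk, measured 2.93, 2.75, 2.71 and 2.27 CPM in CTRL against 2.97, 3.55, 2.26 and 2.76 CPM in miR-155OE (log2 fold change 0.11, SE 0.17, adjusted p = 0.772 in edgeR). HOXB6 measured 0.444, 0.579, 0.325 and 0.542 CPM in CTRL against 0.210, 0.560, 0.174 and 0.246 CPM in miR-155OE. It was lower in 4 of 4 pairs but did not pass (log2 fold change -0.65, SE 0.41, adjusted p = 0.432 in edgeR). HOXB6 shares 433 exon bases with HOXB3, and 67.1% of its exon bases are its own. The log2 ratio of HOXB4 to HOXB7 reads within a library was 0.26 ± 0.21 in CTRL against -0.68 ± 0.29 in miR-155OE (SD, n = 4 each). This ratio too was chosen after its values were seen, and the difference of -0.94 was not tested. The antisense HOXB-AS1, which overlaps HOXB3 and HOXB2, had a log2 fold change of -0.42 (SE 0.33, adjusted p = 0.546 in edgeR).

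HOXA genes did not pass in either fit. HOXA3, which shapes the thymus and parathyroid from the pharyngeal arches, measured 3.76, 2.95, 3.09 and 2.79 CPM in CTRL against 3.19, 2.88, 3.43 and 2.41 CPM in miR-155OE. HOXA4 measured 1.54, 1.71, 1.43 and 1.65 CPM in CTRL against 1.47, 1.99, 1.46 and 1.07 CPM in miR-155OE, with 52.7% of its exon bases its own. Both had a log2 fold change of -0.08 (SE 0.16 and 0.21), with edgeR adjusted p of 0.842 and 0.887. HOXA2, which sets the identity of the second pharyngeal arch, measured 0.414, 0.753, 0.706 and 0.361 CPM in CTRL against 0.150, 0.532, 0.323 and 0.164 CPM in miR-155OE. Each pair was lower, on 5 to 37 reads per library (log2 fold change -0.93, SE 0.44, adjusted p = 0.285 in edgeR, and 0.0844 with the block). HOXA5, needed for trachea and lung development, measured 0.355, 0.434, 0.477 and 0.361 CPM in CTRL against 0.180, 0.336, 0.397 and 0.192 CPM in miR-155OE. It was lower in 4 of 4 pairs and did not pass (log2 fold change -0.55, SE 0.34, adjusted p = 0.426 in edgeR). Of the antisense rows here, HOXA-AS2, which overlaps HOXA3 and HOXA4, had a log2 fold change of -0.90 (SE 0.35, adjusted p = 0.186 in edgeR) and HOTAIRM1, next to HOXA2, one of -0.31 (SE 0.25, adjusted p = 0.554).

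Summed over members, HOXB was lower and HOXC and HOXD were higher in miR-155OE by value, beside a HOX total of similar level. All 38 genes together gave 45.7 ± 6.08 CPM in CTRL against 46.6 ± 4.57 CPM in miR-155OE (SD, n = 4 each). HOXB went from 17.7 ± 1.90 to 12.7 ± 2.76 CPM and HOXC from 21.6 ± 3.53 to 26.8 ± 4.02 CPM, with overlapping groups in each. The HOXC difference was carried by HOXC13: without it the other HOXC members summed to 18.8 ± 2.32 CPM in CTRL against 17.7 ± 2.38 CPM in miR-155OE (SD, n = 4 each). HOXD went from 0.779 ± 0.501 to 1.94 ± 0.591 CPM, almost all of it HOXD8, and its groups did not overlap (0.382 to 1.51 and 1.54 to 2.80 CPM). HOXA gave 5.70 ± 0.386 and 5.08 ± 0.807 CPM. As a share of HOX reads in a library, HOXC made up 45.2% to 48.4% in CTRL against 51.8% to 63.2% in miR-155OE, HOXB 37.8% to 39.8% against 20.8% to 33.6%, and HOXD 0.887% to 2.83% against 3.44% to 5.54%. These 3 shares did not overlap between groups, while that of HOXA did (11% to 13.3% and 9.68% to 12.6%). The shares of a library add up to 100%, so they do not move independently. No test was run on these sums.

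**Figure D5:**
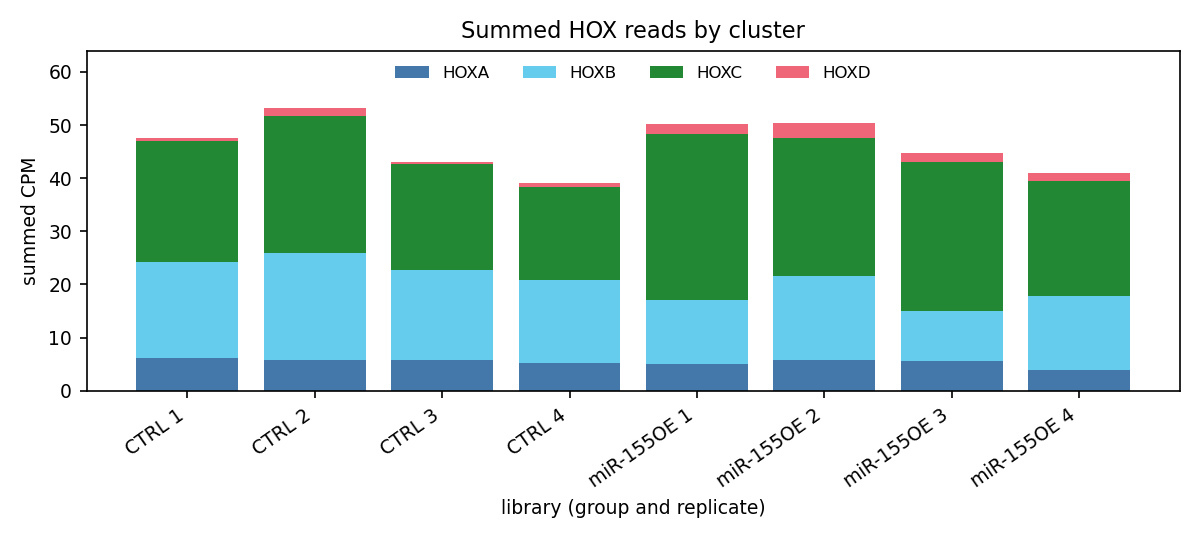
Summed CPM of the HOX members of each cluster (stacked bars, from 0) in each library. The full bars reach 39.1 to 53.2 CPM in CTRL against 41.0 to 50.5 CPM in miR-155OE, with a smaller HOXB and a larger HOXC mean in miR-155OE.

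A match to the miR-155-5p seed (AGCATTA) was present in the longest annotated 3′ UTR of 1 of the 38 members, HOXA3, which is 1 of the 17 members tested, against 1560 of 12532 tested genes with an annotated 3′ UTR (12.4%). The site and its surroundings lie at chr7:27106328-27106356 on the minus strand (GRCh38), with the match in capitals.
HOXA3 site: gccggaatcccAGCATTAgcttcctgctg
HOXA3 did not pass, as given above, and none of HOXB2, HOXB3, HOXB4 and HOXC4, the members with the lower values in miR-155OE at an unadjusted p under 0.05, holds this match.

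Within the clusters widened by 10 kb, 63 rows were not protein-coding. Of these, 46 had no read and 7 were tested. On group alone 0 of the 7 passed in edgeR, against 3.22% of all 15135 genes tested. An unadjusted p under 0.05 was seen for 3 of the 7, against 2925 of all genes tested. DESeq2 called HOXC13-AS and limma-voom none. HOTAIR, the antisense RNA between HOXC12 and HOXC11, was near the floor at 0.245 ± 0.132 CPM in CTRL against 0.301 ± 0.148 CPM in miR-155OE (log2 fold change 0.28, SE 0.52, adjusted p = 0.821 in edgeR). Beyond the clusters, of the 3 nearest protein-coding genes on each side, 24 in all, 20 were tested. Of these 20, 0 rose and 1 fell, against 2.17% higher and 1.05% lower over all genes tested. At an unadjusted p under 0.05, 0 were higher and 3 lower. DESeq2 and limma-voom called 0 higher and 1 lower each. Their median log2 fold change was -0.03. The gene that fell was SMUG1, a DNA repair glycosylase at the 3′ side of the HOXC cluster: 31.2, 31.2, 32.7 and 32.4 CPM in CTRL against 26.0, 23.7, 27.1 and 27.5 CPM in miR-155OE. Its log2 fold change was -0.29 (SE 0.07, adjusted p = 0.0485 in edgeR), and the call was lost without any 1 of the 8 libraries (adjusted p 0.0546 to 0.119) and with no filter on low counts (0.0736). None of the genes flanking HOXC13 on its own side (ATF7, ATP5MC2, CALCOCO1) passed; their log2 fold changes were -0.06, 0.04 and -0.16.

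Among the 8 TALE cofactors of HOX proteins examined, 7 were tested, with a median log2 fold change of -0.09. On group alone 0 rose and 1 fell, against 2.17% higher and 1.05% lower over all genes tested. At an unadjusted p under 0.05, 1 had a higher and 1 a lower value. DESeq2 called 1 higher and 1 lower, and limma-voom 0 higher and 1 lower. MEIS1, the cofactor that fell, measured 24.2, 28.4, 25.8 and 20.1 CPM in CTRL 1 to 4 against 12.7, 19.6, 8.59 and 12.3 CPM in miR-155OE 1 to 4. The groups did not overlap, and all 4 pairs were lower (log2 fold change -0.89, SE 0.21, adjusted p = 0.0489 in edgeR, and 0.00528 with the block). This call was at the threshold: it was kept without miR-155OE 2 (adjusted p = 0.00384) and lost without any other library (0.0502 to 0.127) and with a filter of at least 10 reads in each library (0.0515). MEIS3, a related cofactor, measured 2.07, 1.91, 1.70 and 1.03 CPM in CTRL against 4.03, 3.47, 3.47 and 2.03 CPM in miR-155OE. It overlapped only between CTRL 1 and miR-155OE 4 (log2 fold change 0.95, SE 0.26, adjusted p = 0.0733 in edgeR) and rose with the block (adjusted p = 0.00497). PKNOX1 had the next lowest p and did not pass (log2 fold change -0.12, SE 0.07, adjusted p = 0.431 in edgeR).

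Of 61 tested Polycomb, Trithorax and retinoic acid genes together, 1 passed on group alone (1.64%, against 3.22% of all genes tested) and 6 with the block (9.84%, against 12.6%), so these counts are no result about regulators. Of 29 Polycomb genes, all tested, 0 passed on group alone (4 had an unadjusted p under 0.05, DESeq2 called 1 higher and 1 lower, limma-voom none), with a median log2 fold change of 0.02. With the block RNF2 and KDM2B rose and PHF1 fell; KDM2B, a CpG-binding member of Polycomb complex 1, had an adjusted edgeR p of 0.231 on group alone and 0.0441 with the block. The 3 with the lowest p were RNF2, the ubiquitin ligase of Polycomb complex 1 (log2 fold change 0.31, SE 0.09, adjusted p = 0.0763 in edgeR, and 0.0293 with the block), PHF1 (-0.42, SE 0.13, 0.0992, and 0.0218 with the block) and EZH1, a methyltransferase of Polycomb complex 2 (-0.30, SE 0.10, 0.140). Of 21 Trithorax and other activators, 1 fell, with a median of -0.03. That gene was KAT6A, an acetyltransferase encoded on chromosome 8: 93.4, 84.3, 95.4 and 98.6 CPM in CTRL against 68.4, 80.1, 64.2 and 71.5 CPM in miR-155OE. Its groups did not overlap (log2 fold change -0.39, SE 0.08, adjusted p = 0.0348 in edgeR, and 0.0142 with the block), and the call was kept without CTRL 2 or miR-155OE 2 and lost without any other library (adjusted p 0.0651 to 0.103). PSIP1 and MLLT3 followed at -0.35 (SE 0.13) and -0.39 (SE 0.18) and did not pass (adjusted p = 0.184 in edgeR and 0.283). Of 11 tested retinoic acid genes, 0 passed (2 had an unadjusted p under 0.05, DESeq2 called RDH10 and limma-voom none), with a median of 0.06. With the block RDH10 rose and ALDH1A3, which makes retinoic acid, fell (ALDH1A3 adjusted p = 0.725 in edgeR on group alone and 0.0487 with the block). RDH10, which makes retinaldehyde, had a log2 fold change of 0.37 (SE 0.10, adjusted p = 0.0653 in edgeR, and 0.0162 with the block), ALDH1A2 one of 0.70 (SE 0.27, 0.187) and the receptor RARG one of -0.14 (SE 0.07, 0.311).

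Among ParaHox and HOX-linked homeobox genes, 7 of 19 were tested, with a median log2 fold change of 0.41. On group alone 1 rose and 0 fell, against 2.17% higher and 1.05% lower over all genes tested. With the block 3 rose and 0 fell, against 7.43% and 5.17%. At an unadjusted p under 0.05, 4 were higher and 0 lower, against 1614 and 1311 of all 15135 genes. DESeq2 called 2 higher and limma-voom 1, and neither called any lower. DLX6, which patterns the jaw together with its neighbour DLX5 on the HOXA chromosome, measured 0.473, 0.434, 0.325 and 0.464 CPM in CTRL against 1.56, 1.09, 1.69 and 1.12 CPM in miR-155OE. The groups stood well apart (log2 fold change 1.69, SE 0.26, adjusted p = 0.00984 in edgeR), and the call held without each library in turn (adjusted p 0.00581 to 0.0413). DLX3, a skin and hair gene on the HOXB chromosome, measured 48.5, 43.3, 38.2 and 54.3 CPM in CTRL against 73.4, 50.4, 91.7 and 81.5 CPM in miR-155OE. DLX3 (log2 fold change 0.69, SE 0.17, adjusted p = 0.0541 in edgeR) and DLX5 (0.41, SE 0.14, 0.134) did not pass on group alone and rose with the block (adjusted p = 0.0140 and 0.00650). Hair keratins, which HOXC13 is known to regulate, were listed after the HOXC13 values had been seen. Of 17, 5 were tested and 0 passed on group alone in edgeR, against 3.22% of all genes tested. An unadjusted p under 0.05 was seen for 1 of the 5, against 2925 of all 15135 genes. DESeq2, limma-voom and the block called none, and the median log2 fold change was 0.20. With 5 tested, these counts are no result about hair keratins. The other members had too few reads to test. Of these, KRT84 had 0, 2, 2 and 1 reads in CTRL 1 to 4 against 19, 5, 22 and 4 in miR-155OE 1 to 4. KRT38 had 0, 0, 1 and 0 reads against 6, 1, 15 and 1. KRT83 went the other way, with 1, 2, 4 and 4 reads against 0, 2, 1 and 1. Whether any of these members changed was not tested. KRT37 had the lowest p, at 12.7, 6.05, 6.19 and 9.18 CPM in CTRL against 18.9, 14.2, 37.6 and 5.31 CPM in miR-155OE (log2 fold change 1.16, SE 0.48, adjusted p = 0.209 in edgeR). KRT34 (0.14, SE 0.26) and KRT31 (-0.60, SE 0.29) did not pass either (adjusted p = 0.824 in edgeR and 0.302).

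In the authors' deposited table, 24 of the 38 members are listed, and 3 have an adjusted p of at most 0.05, in a table where 4.73% of all listed genes do. These are HOXC13 (log2 fold change 1.73, adjusted p = 2.56e-06 in the authors' deposited table), HOXD8 (1.41, 0.00858) and HOXB2 (-0.53, 0.0366). The authors' deposited table gives HOXB4 -0.77 with an adjusted p of 0.0553.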

How the data were processed

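RNA-seq was measured in 8 libraries, 4 CTRL and 4 miR-155OE. The tools in the submitters' processing notes are featureCounts 1.5.0-p3, HISAT2 2.0.5 and DESeq2, and the build is GRCh38. Options, strand setting and annotation release are not given in the sources used here. Positions in the count file match GENCODE 29 for 99.94% of genes. The deposited raw counts are whole numbers of reads per gene, per the file headers. A second deposited table holds a signal per library normalised by size factors. It also gives the authors' log2 fold change, and the authors' p-value before and after adjustment. That table was used only for the values credited to it.

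The main test was edgeR's quasi-likelihood F test (edgeR 4.0.16, R 4.3.3) of miR-155OE against CTRL, with group as the only term, on the 15135 genes that filterByExpr kept and with TMM scaling. P-values were adjusted by Benjamini-Hochberg over all these genes, with a threshold of 0.05. CPM values use TMM-scaled library sizes, and each SE is derived from the log2 fold change and its F statistic. Expressed means at least 10 reads in each library. Alternatives were DESeq2 1.42.0, limma 3.58.1 (voom), RLE size factors, other filters on low counts, the replicate number as a block, and leaving out each library. Tables and figures were made in Python 3.11.15 (pandas 2.3.3, numpy 2.4.6, matplotlib 3.10.9). The fit was also run on counts simulated from its own means and dispersions, with no effect of the replicate number, so that run does not check the calls given here. Libraries held 33443635 to 52746852 reads, and the 3 reads that a count of 0 allows are 0.0573 to 0.0901 CPM.

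Over 10267 genes, deviations from the group means correlated between same-numbered libraries at 0.578, 0.497, 0.184 and 0.607 for numbers 1 to 4 (genes are not independent replicates). The numbers were therefore taken to pair the samples, although the 2 libraries of number 3 did not match each other best. CTRL 3 correlated most with miR-155OE 4 (0.203), and miR-155OE 3 with CTRL 4 (0.399). Between numbers 1 and 2, CTRL 1 and miR-155OE 2 correlated at 0.275, and CTRL 2 and miR-155OE 1 at 0.267. Every call with the block rests on this pairing. The blocked value is printed where it changes the call of a HOX gene, a noncoding neighbour, or a member of a gene or marker list.

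Every member is accounted for, with values by library for those tested. From each list the members past the threshold and the 3 with the lowest p are named, from the noncoding rows those tested, and from the flanking genes those past the threshold, with the 3 beside HOXC13 chosen after their values were seen, as were the other list members and markers named for their blocked value. Members and lists were chosen with earlier results of these data known. The untested hair keratins KRT84, KRT38 and KRT83 were named after their values were seen. Some genes of the families described are not reported here.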

Additional observations from a re-analysis of the deposited data

Results flagged for a closer look

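In 7 of 86 groups of 4 libraries examined, over 43 genes, 1 library stood far from the other 3 by Dixon's criterion at 95%. Chance gives about 1 in 20 groups. In the HOXC cluster, HOXC9 measured 1.92 CPM in CTRL 1 against 2.40 to 2.43 in the other CTRL libraries. HOXC6 measured 1.34 CPM in CTRL 4 against 1.85 to 1.92, and 1.35 CPM in miR-155OE 1 against 1.76 to 1.81. HOXC8 measured 1.01 CPM in CTRL 3 against 0.439 to 0.492.

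Among noncoding neighbours, HOTAIRM1 measured 1.53 CPM in miR-155OE 4 against 3.2 to 3.31, and HOXB-AS1 measured 0.248 CPM in CTRL 3 against 0.490 to 0.533. Among Polycomb genes, PHF1 measured 13.8 CPM in miR-155OE 2 against 9.31 to 10.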

How the results depend on the processing

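The count of genes called was 488 by edgeR on group alone, 1223 by DESeq2, 927 with no filter on low counts and 1908 with the replicate number as a block, and ran from 125 to 1274 when 1 library was left out. The HOX genes called were 1, 3, 2 and 4 in the same order, and 0 to 3 without 1 library. They were 0 without CTRL 1, CTRL 3, miR-155OE 1 or miR-155OE 3, and 3 without miR-155OE 2 (HOXB3, HOXB4 and HOXC13). RLE size factors, limma-voom and a filter of at least 10 reads in each library gave 517, 503 and 473 genes called, with 1 HOX gene each. The cause of these differences was not tested.

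The replicate block added HOXD8, HOXB2 and HOXB4 and lost no HOX call. Of the other genes, it also added HOXC13-AS, MEIS3, RNF2, PHF1, KDM2B, RDH10, ALDH1A3, DLX3 and DLX5, and 8 cell type markers (SPRR3, CRNN, KRT15, KRT4, KRT13, COL1A1, TWIST1 and CD14).

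The count of 13 expressed HOX genes was 17 at 1 read, 11 at 0.5 CPM and 11 at 0.5 TPM in each library, and 13 to 14 without 1 library. Log2 fold changes near 0 changed sign when 1 library was left out, all without passing the test. Their ranges without 1 library were -0.16 to 0.10 for HOXC10 (0.05, 0.08, 0.03 and 0.10 without CTRL 1, CTRL 2, miR-155OE 3 and miR-155OE 4), -0.15 to 0.02 for HOXA3, -0.06 to 0.10 for HOXC9, -0.16 to 0.04 for HOXC6, -0.24 to 0.06 for HOXA4, -0.09 to 0.35 for HOXC11, -0.08 to 0.49 for HOTAIR and -0.01 to 0.35 for KRT34. HOXA2, HOXA5, HOXB6 and HOXC11 had the fewest reads of the HOX genes tested, 5 to 37 per library; the part of depth in their SE was not tested.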
